A study of Mus musculus with 4 samples.

Results

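Fos binding was described at 8 genes that mark fetal-like and regenerating gut epithelium: Emp1, Ly6a, Msln, F3, Clu, Spp1, Il33 and Il1rn. They were chosen by name, with earlier results of these data known. All 8 were among the 21627 protein-coding genes of the mm10 gene table on the autosomes and chromosome X. Every Fos summit, the point of highest signal within a called region, was taken when it lay inside a gene's span or within 50 kb of it. These windows held 196 of the 178981 summits in the deposited list.

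After injury, gut epithelium passes through a state that resembles the fetal intestine, in which crypt stem cell genes are lowered and surface, secreted and cytokine genes that the resting tissue expresses little of are raised. The markers of that state are not one pathway. They include membrane proteins, a coagulation receptor, secreted glycoproteins and members of the interleukin-1 family. Fos is a subunit of AP-1, a leucine zipper transcription factor that growth and stress signals induce and that binds TGAGTCA and close variants, searched here as TGANTCA, often far from the genes it regulates.

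The series used CUT&Tag, in which an antibody to Fos brings the transposase Tn5 to its sites, where it inserts sequencing adapters, on scraped mucosa of wild-type (WT) mouse colon labelled as colonic epithelium. There were 2 libraries of healthy controls and 2 of colitis recovered mice. The latter had drunk 1 to 1.5% dextran sodium sulfate (DSS), which damages the colonic epithelium, for 3 cycles of 7 days on and 10 days off, with tissue taken 22 days after the end of the last. Strain and age are not stated in the labels, and all 4 libraries carry the same batch label. The file analysed was the 1 peak list of the series, without values per library. Which of the 4 libraries entered it is not stated, so the folds may come from 1 group or from both. Healthy and recovered tissue therefore could not be compared and there are no replicate errors to give.

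Strength is given as the fold enrichment that the authors' peak caller recorded at each summit, with the number of overlapping fragments (the pileup) behind it. Over all summits the median fold was 6.73, with an interquartile range of 4.09 to 15.4, and the fewest fragments at any summit were 10. Intervals on pileups are exact 95% Poisson intervals and cover counting error only. No control library was used here, so Fos signal and the cutting of open chromatin by Tn5 cannot be told apart, at the markers or elsewhere. Genes that define the labelled tissue carried summits within 1 kb of a gene end at 10 of 10 colonic epithelium genes, among them Cdh1 and Krt8, where 62.0% of all protein-coding genes did. The same held at 2 of 10 leukocyte genes (Cd68 and Itgax), 3 of 7 fibroblast genes and 1 of 5 endothelial genes. It held at 0 of 3 each for smooth muscle (Acta2, Myh11 and Des) and mesothelium (Upk3b, Wt1 and Krt5). Fibroblasts, leukocytes and mesothelium also express some of the markers, and the part of those cells in the values below was not tested.

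The promoters of Emp1, Il1rn, F3 and Il33 are shown because each held a Fos summit, and the first 3 also held the AP-1 element. Each run is the 250 bases before the first RefSeq start of transcription, on the + strand of GRCm38.p6 (mm10). Capitals mark TGANTCA in Emp1, Il1rn and F3, and the TEAD element GGAATG in Il33. The intervals are chr6:135362681-135362930 for Emp1, chr2:24336610-24336859 for Il1rn, chr3:121723287-121723536 for F3 and chr19:29924863-29925112 for Il33.
Emp1: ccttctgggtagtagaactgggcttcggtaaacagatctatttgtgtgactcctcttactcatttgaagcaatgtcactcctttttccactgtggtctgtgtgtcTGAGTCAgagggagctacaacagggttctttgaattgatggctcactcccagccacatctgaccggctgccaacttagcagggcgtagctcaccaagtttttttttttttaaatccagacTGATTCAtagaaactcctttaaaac
Il1rn: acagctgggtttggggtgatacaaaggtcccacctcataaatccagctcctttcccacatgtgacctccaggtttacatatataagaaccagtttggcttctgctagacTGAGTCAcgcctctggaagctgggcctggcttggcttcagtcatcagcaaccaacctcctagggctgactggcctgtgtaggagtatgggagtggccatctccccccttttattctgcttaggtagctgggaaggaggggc
F3: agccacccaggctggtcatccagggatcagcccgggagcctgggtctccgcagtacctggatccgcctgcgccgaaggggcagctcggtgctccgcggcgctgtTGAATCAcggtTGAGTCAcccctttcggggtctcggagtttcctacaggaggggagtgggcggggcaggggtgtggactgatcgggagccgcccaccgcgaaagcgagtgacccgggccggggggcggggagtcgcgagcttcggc
Il33: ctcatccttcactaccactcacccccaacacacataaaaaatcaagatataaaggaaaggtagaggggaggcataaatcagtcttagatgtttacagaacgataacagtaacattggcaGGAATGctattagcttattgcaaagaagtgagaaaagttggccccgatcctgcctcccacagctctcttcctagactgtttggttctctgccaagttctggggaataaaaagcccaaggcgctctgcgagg

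RefSeq promoters, each from 250 bases before to 50 after a start, were found for 5 of the 8 markers, with 10 entries in all, since Emp1, Il33 and Spp1 have a pair each and Il1rn has 3. Ly6a, Clu and Msln had no entry. A summit lay inside 4 of the 10 entries, where 42.3% of the 21044 entries of protein-coding genes held one. The element TGANTCA, searched on both strands, was in 3 of the 10 entries, against 7.04% of all entries, and those 3 were among the 4 with a summit. Across the genome, promoters with a summit inside held TGANTCA in 5.50% of cases. A match is a description of the letters and not a measured site.

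In all 3 promoters the match TGAGTCA began at a like distance before the start, 145 bases in Emp1, 141 in Il1rn and 135 in F3. Whether this likeness is unusual among promoters with the element was not tested. The RefSeq start used for Emp1 lies 381 bp inside the lower end of its gene span. Those of Il1rn and F3 lie at the lower end, so the Emp1 match is inside the gene span and the others are outside. The Emp1 match lay 39 bp from its summit. The F3 match lay 70 bp from the summit inside its promoter (fold 28.1). The strongest boundary summit of F3 (fold 45.5) lay outside the promoter and was farther from the match. The Il1rn match lay 114 bp from its summit. F3 carried a further match, TGAATCA, that did not overlap the first and began 146 bases before the start, and Emp1 carried TGATTCA at 25 bases before it. GGAATG, the element of the TEAD factors that act with YAP, was in 3 entries, against 13.5% of all, and the one in the first Il33 promoter lay 7 bp from a weak summit. The cyclic AMP response element TGACGTCA was in 0 of the 10 entries and in 2.26% of all.

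Summits near gene ends were present at 6 of the 8 markers. Here a boundary summit is one within 1 kb of either end of the gene, since the gene table gives no strand. Across the genome 62.0% of protein-coding genes (95% Wilson interval 61.3 to 62.6) had one, so presence alone does not set the markers apart. Spp1 and Msln had none. Of the 5 markers with a known strand, 4 had a summit within 1 kb of the start, all but Spp1, where the share over all genes of known strand was 59.3%.

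The strength of the boundary signal ran over a wide range among the 6. It was 163 at Emp1, 95.0 at Il1rn, 56.0 at Clu, 45.5 at F3, 7.22 at Ly6a and 3.13 at Il33. The first 4 were above the median of 27.4 over the 13402 genes with a boundary summit, and the last 2 were at percentiles 15.7 and 1.50 of those genes. Only Emp1 reached a boundary fold of 100, as did 5.94% of all protein-coding genes. The median over the 6 was 50.8.

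**Figure D1:**
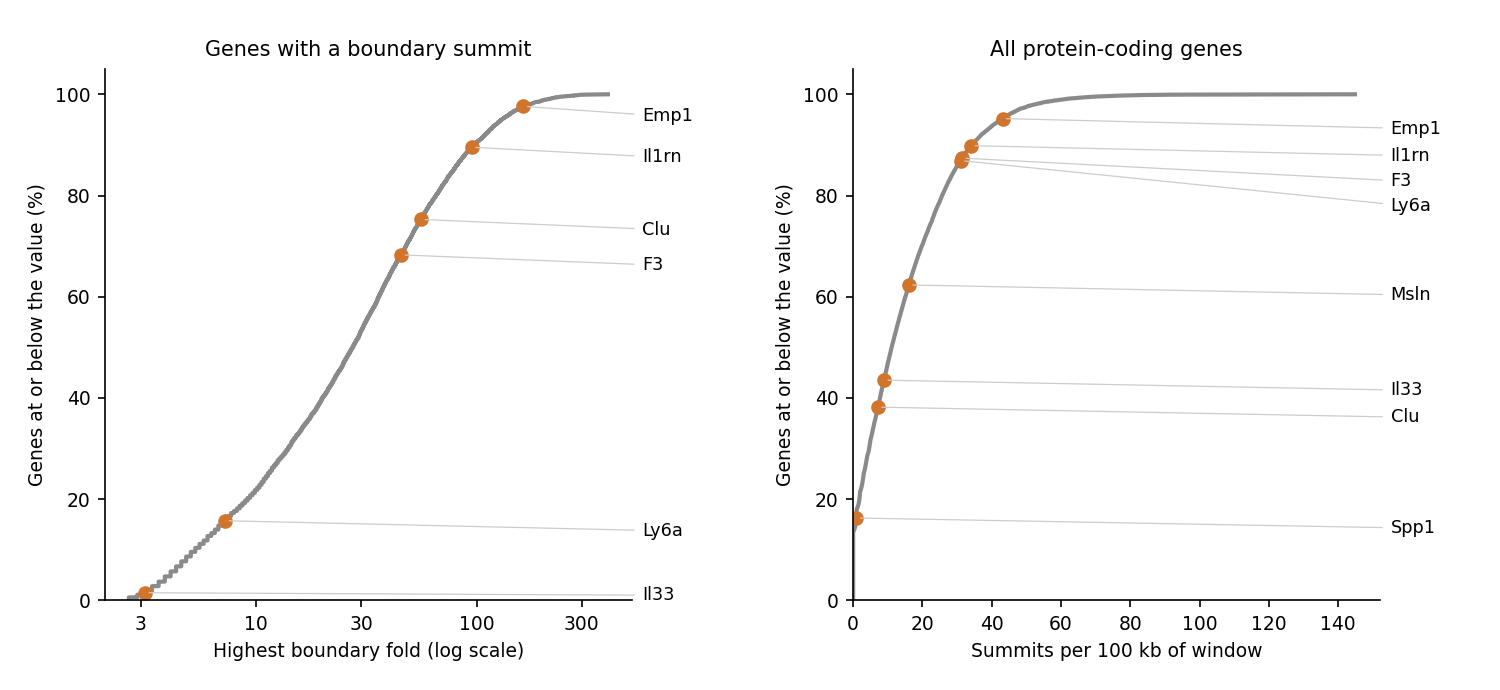
Left, the highest boundary fold (log axis) of the 13402 protein-coding genes with a boundary summit, as the share of genes at or below each value (grey line), with the 6 markers that have one as orange points. Right, the same for summits per 100 kb of window over all 21627 protein-coding genes with all 8 markers. Emp1, Il1rn, F3 and Ly6a are high on the right, while Ly6a and Il33 sit low on the left.

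The number of summits in the window differed as much as their strength. Emp1 had 52, Il1rn 39, F3 35, Ly6a 32, Msln 17, Il33 12, Clu 8 and Spp1 1. The first 4 genes held 158 of the 196 summits, or 80.6%. Per 100 kb of window, which allows for gene length, the markers had a median of 23.6 against 11.1 over all protein-coding genes. A window with 1 summit or none, as at Spp1, was found for 17.3% of all protein-coding genes.

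A summit with a fold of at least 100 lay in the windows of 3 of the 8 markers, Emp1, F3 and Il1rn. Of all protein-coding genes 26.8% had one, so the count alone does not set the markers apart. These strong summits were 7 in all, 4 near Emp1, 2 near Il1rn and 1 near F3. Only 1 of the 7, that of Emp1, lay at the marker's own boundary. Of the 196 summits, 107 had the marker as their nearest protein-coding gene and 89 lay in or nearer to another gene. Assignment rests on distance alone. At the edge of the windows, a summit 49916 bp from Msln with a fold of 4.09 was just inside, and one 50446 bp from F3 with a fold of 3.37 was just outside.

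**Figure D2:**
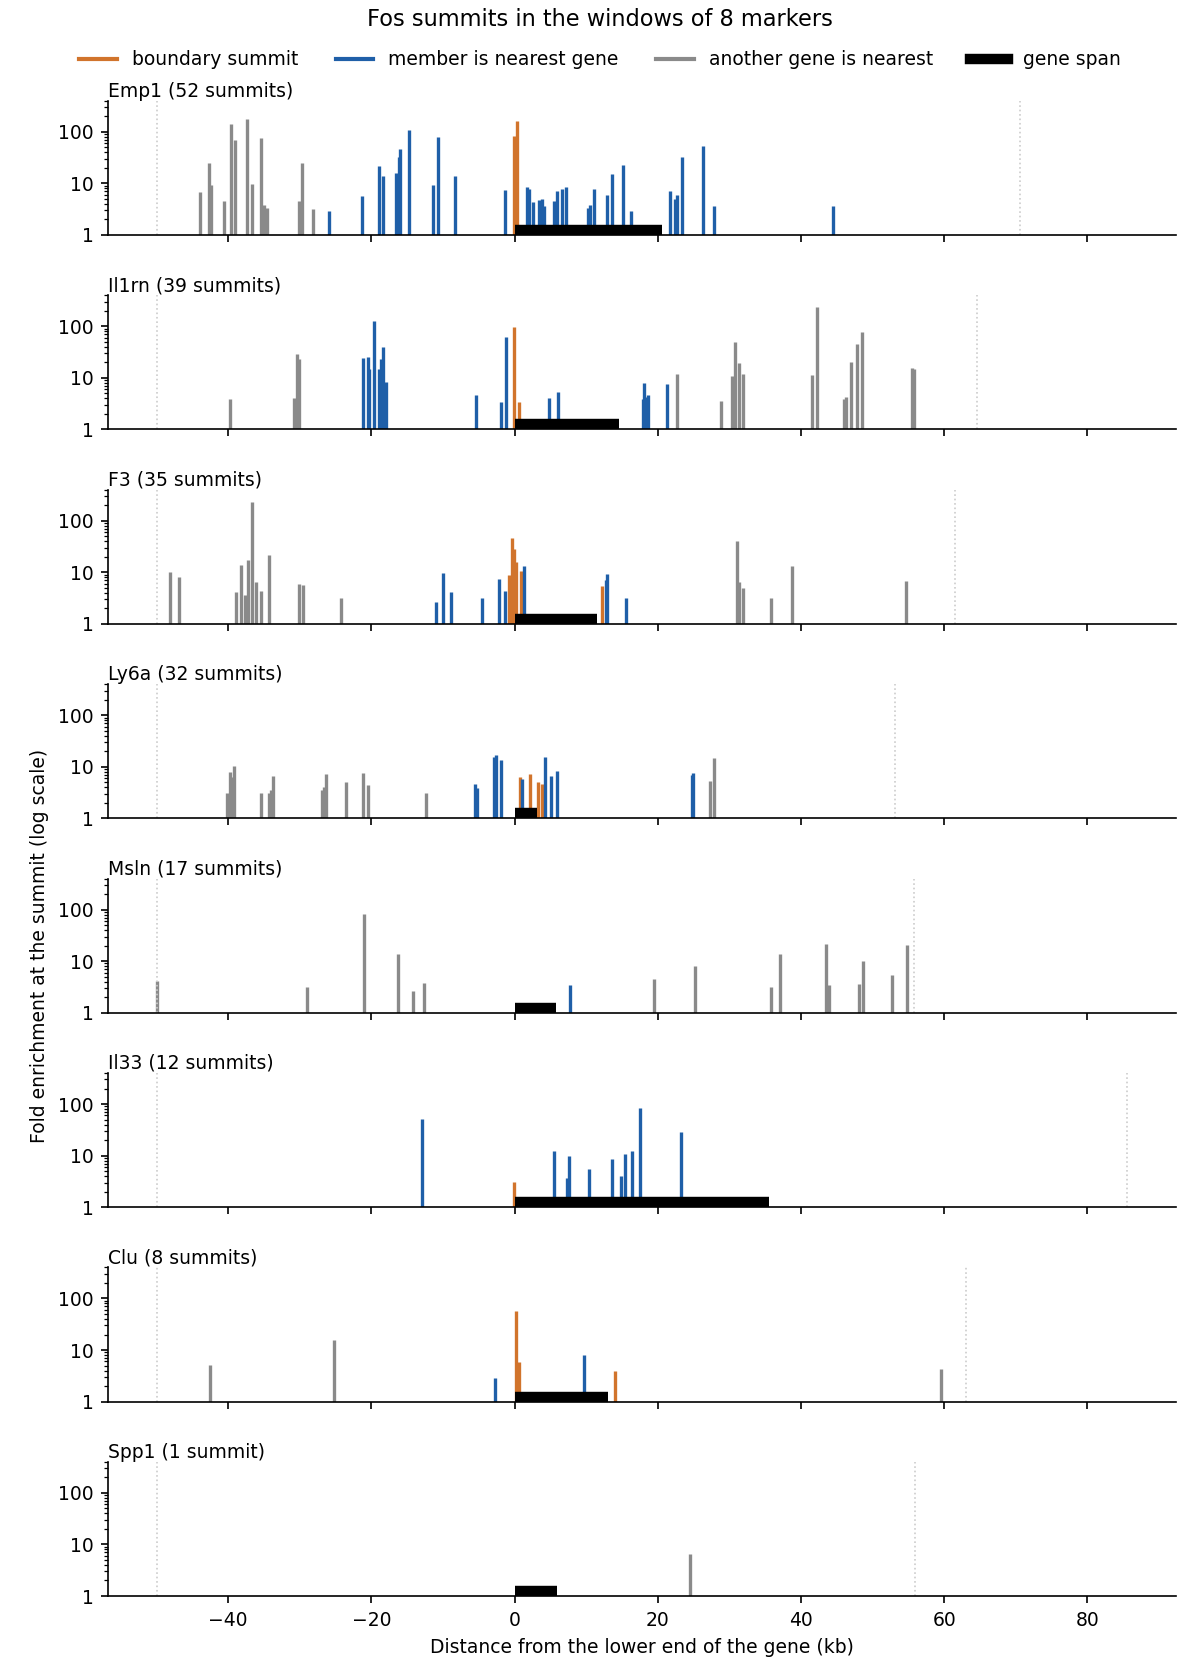
Each vertical line is a Fos summit, placed by its distance in kb from the lower end of the gene, with its fold enrichment on a log axis; the black bar is the gene and dotted lines are the window edges. Orange lines are boundary summits, blue lines those with the marker as nearest protein-coding gene and grey lines those with another gene nearest. Emp1 is surrounded on both sides, Il33 has 10 of its 12 summits inside the gene, and Spp1 has 1 summit.

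Among the membrane proteins, Emp1 had the most summits and the highest boundary fold, while the strongest summit in the window was higher at F3. It encodes epithelial membrane protein 1, a relative of the peripheral myelin protein Pmp22, and lies on chromosome 6 from 135362550 to 135383173. No other protein-coding gene reached into its window. Its promoter summit at 135362831, shown above, had a fold of 163 and 676 fragments (626 to 729), which is at percentile 97.6 of boundary folds. A companion in the same region, 99 bp outside the lower end, reached 82.0 with 340 fragments.

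Emp1 also had a run of strong summits below its lower end. The strongest of the window reached 179 (743 fragments, 691 to 798), 37333 bp from the lower end. Others followed at 39558 bp (fold 139.5), 14704 bp (106), 10747 bp (78.7) and 35429 bp (76.0). Those beyond 25940 bp, 14 of the 52 summits, lay nearer to Pbp2, whose span is outside the window. Inside the gene 17 summits were weaker, with folds from 2.89 to 22.6, and above the upper end a summit at 5749 bp reached 52.0. All 17 interior folds were below both boundary folds.

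Ly6a, which encodes the GPI-anchored surface antigen Sca-1, widely used to mark regenerating colon epithelium in mice, had many summits but no strong one. The gene lies on chromosome 15 from 74994877 to 74998031, beside its relatives Ly6e, Ly6i and Ly6c1. At 31.0 summits per 100 kb it was at percentile 86.9 of all protein-coding genes. Its 4 boundary summits had folds of 7.22, 6.25, 5.05 and 4.57, and the 1 interior summit had 5.77.

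The highest fold in the Ly6a window was 17.1, from 70 fragments (54.6 to 88.4) at 2522 bp outside the lower end, which is at percentile 14.4 of the 18673 genes with any summit in their window. A fold of 15.4 at 1031 bp above the gene fell just outside the boundary limit. Of its 32 summits 17 lay nearer to Ly6e, Ly6i or Ly6c1. Ly6 genes are close copies of each other, and how reads that match several of them were placed is not recorded, so the values at this cluster are uncertain.

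Msln encodes mesothelin, a GPI-anchored surface protein that binds the mucin Muc16, and lies on chromosome 17 from 25748613 to 25754378. It had 0 boundary and 0 interior summits. The nearest stood 1939 bp past the upper end, at fold 3.37 with 13 fragments (6.92 to 22.2), and was the only one of the 17 summits in the window for which Msln was the nearest gene. The other 16 lay in or beside other genes of this dense stretch, where 9 more protein-coding genes reach into the window. The strongest, with a fold of 83.2 and 345 fragments, was 20976 bp below Msln and 66 bp from Rpusd1.

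F3 encodes tissue factor, the membrane receptor for factor VII that starts the extrinsic pathway of coagulation, and lies on chromosome 3 from 121723537 to 121735052. A single called region of 4051 bp with 8 summits spanned its start. The strongest of them, 373 bp before the start, reached 45.5 with 188 fragments (162 to 217), and that in the promoter shown above, 59 bp before the start, had 28.1 and 116 fragments. At the upper end of the gene the boundary fold was 5.29. Without regions wider than 3000 bp only that upper summit remained at the F3 boundaries.

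The strongest summit of the F3 window had a fold of 227 and 943 fragments (884 to 1005), at percentile 96.4. It lay 36637 bp below F3, in a region of 3772 bp with 7 summits, and 3918 bp from the uncharacterised gene 4930432M17Rik. Past the upper end, a summit at 19529 bp from F3 reached 40.7, at 4323 bp from Abcd3, a transporter of peroxisomes. Of the 35 summits, 16 had F3 as their nearest protein-coding gene, and none of those exceeded the 45.5 at its start. Without regions wider than 3000 bp, the highest fold in the window was 40.7.

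Clu and Spp1, the secreted glycoproteins, differed. Clu encodes clusterin, an extracellular chaperone that marks the revival stem cells of damaged intestine, and lies on chromosome 14 from 65968483 to 65981548. A summit 180 bp inside its lower end had a fold of 56.0 and 232 fragments (203 to 264), at percentile 75.3 of boundary folds. Its other 7 summits had folds from 2.89 to 15.6. The 15.6 lay inside the neighbouring gene Scara3, 25245 bp below Clu. With 7.08 summits per 100 kb, Clu was at percentile 38.2 of all protein-coding genes.

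Spp1 encodes osteopontin, a secreted phosphoprotein that binds integrins and Cd44, and lies on chromosome 5 from 104435111 to 104441053. The gene and its boundaries held 0 summits. The single summit of its window, with a fold of 6.49 and 26 fragments (17.0 to 38.1), lay 18560 bp above Spp1 and inside Pkd2, the gene of a polycystin channel. Neither of the RefSeq promoters of Spp1 held any of the 3 elements.

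The interleukin-1 family markers placed their signal differently. Il33 encodes a nuclear alarmin that damaged cells release and that signals through the receptor Il1rl1. It lies on chromosome 19 from 29925113 to 29960718. Its boundary summit, 138 bp before the start, was the weakest of the 6, with a fold of 3.13 and 12 fragments (6.20 to 21.0). Inside the gene lay 10 summits, and Il33 was one of 6 markers with an interior summit, where 54.2% of protein-coding genes had one.

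The strongest interior summit of Il33, 17583 bp from its lower end, reached 83.5 with 346 fragments (310 to 384), and another at 23306 bp had 28.6. The second RefSeq start of the gene lies between these, 20677 bp from the lower end. Below the gene, at 12939 bp and inside the noncoding gene Gm41832, stood a summit of fold 50.8 (210 fragments, 183 to 240). Il33 was the nearest protein-coding gene for all 12 summits of its window.

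Il1rn encodes the antagonist that blocks the interleukin-1 receptor, and lies on chromosome 2 from 24336860 to 24351491. Which form of the protein each of its starts gives was not examined. Its promoter summit, 21 bp before the first start, had a fold of 95.0 and 394 fragments (356 to 435), at percentile 89.5 of boundary folds. A further summit of the same region, 1154 bp before the start, had 62.3. The later starts of Il1rn had no summit nearer than 2303 bp, and the interior folds were 4.09 and 5.29.

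Farther out, a region of 3706 bp with 8 summits lay below Il1rn. Its strongest summit had a fold of 129 and 534 fragments (490 to 581) at 19608 bp from the gene, and Il1rn was the nearest protein-coding gene. On the other side, the strongest summit of the window had a fold of 238 and 990 fragments (929 to 1054) at 27562 bp above Il1rn, inside Psd4. Psd4 encodes an exchange factor for the small GTPase Arf6. Of the 39 summits, 20 had Il1rn as the nearest gene and 19 had Psd4 or Il1f10.

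**Figure D3:**
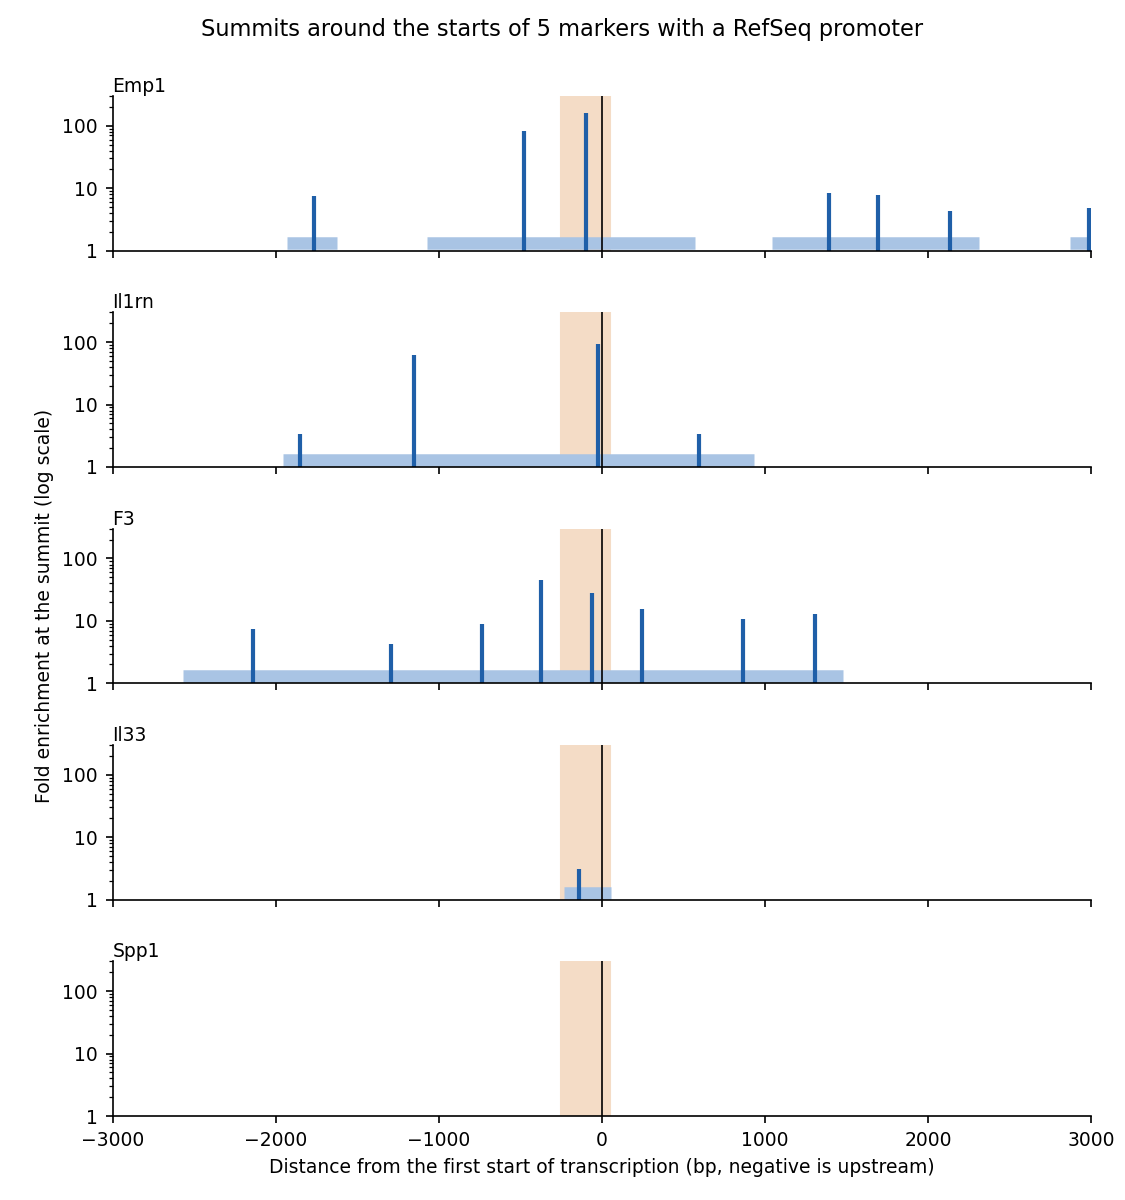
Summits within 3000 bp of the first RefSeq start of the 5 markers with a promoter entry, with the fold enrichment on a log axis; pale blue bars are called regions, the shaded band is the RefSeq promoter and negative distances are upstream. Emp1, Il1rn and F3 have summits with folds of 163, 95.0 and 28.1 inside the band, Il33 has one of 3.13 and Spp1 has none.

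Other genes of the injury and fetal-like state had boundary summits at 22 of 25, against the 62.0% of all protein-coding genes, with a median boundary fold of 36.7. The highest were S100a6 (280.5), a calcium-binding protein, Anxa2 (154), a membrane-binding annexin, and Plaur (138), the urokinase receptor. Anxa10, Ptgs2 and Il1rl2 had none. Ptgs2, which encodes the inducible cyclooxygenase of prostaglandin synthesis, had 2 summits in its window and Anxa10 had 0, beside 1 at Spp1.

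Receptors, partners and inhibitors of the markers had boundary summits at 8 of 17, against the 62.0% of all protein-coding genes. Cd44, with a boundary fold of 11.5, is counted both here and among the injury and fetal-like genes. F2rl1, which encodes the protease-activated receptor PAR2 that the tissue factor complex can cleave, had the highest fold at 198. Il1rap, the accessory chain of the interleukin-1 and IL-33 receptors, had 27.7 and the integrin gene Itgb1 had 26.7. Il1rl1, the receptor of Il33, had 9.62. The 9 without a boundary summit were Il1r1, Il1r2, Il1b, Itgav, Itgb3, Muc16, Tfpi, F7 and F10. Il1b, a ligand that Il1rn opposes, had 0 summits within 50 kb, where Il1rn had 39. Il1a, the other such ligand, had 16 summits in its window, with a boundary fold of 4.81 and a highest window fold of 132. Tfpi, the inhibitor of tissue factor, had 15 summits in its window but none at its ends.

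Paralogs of the markers had boundary summits at 9 of 13, near the 62.0% of all protein-coding genes, with a median fold of 5.77 against 27.4 over all genes with one. The highest were Pmp22 (40.4), Emp3 (21.2) and Emp2 (10.8), and Ly6c2, Ly6k, Ly6f and Otoa had none. The boundary fold of Emp1 was 163, that of its paralog Emp2 10.8. At the Ly6 cluster, boundary folds were 10.1 at Ly6e, 7.22 at Ly6a, 5.77 at Ly6g, 4.57 at Ly6d, 3.13 at Ly6i and 2.65 at Ly6c1. Mslnl, the paralog beside Msln, had 2.65. Most of the listed paralogs are Ly6 genes, whose values are uncertain as stated above, and the median of 5.77 is that of Ly6g.

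Crypt stem cell genes, which are lowered in the regenerative state, served as a contrast. They had boundary summits at 14 of 15, against the 62.0% of all protein-coding genes, with a median fold of 19.2 against 50.8 over the 6 markers with one and 27.4 over all genes, and the lists were not tested against each other. Lrig1 (101), Znrf3 (71.9) and Prom1 (53.2) were highest, and Olfm4 had none. Lgr5, the receptor that defines active crypt stem cells, had a boundary fold of 8.90 and 5 summits in its window. Windows of these genes held a median of 26 summits against 24.5 for the markers and 16 for all protein-coding genes, and per 100 kb 19.6, 23.6 and 11.1. The colonic epithelium genes were above the markers on both measures, with a median boundary fold of 69.6 and 43.4 summits per 100 kb.

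**Figure D4:**
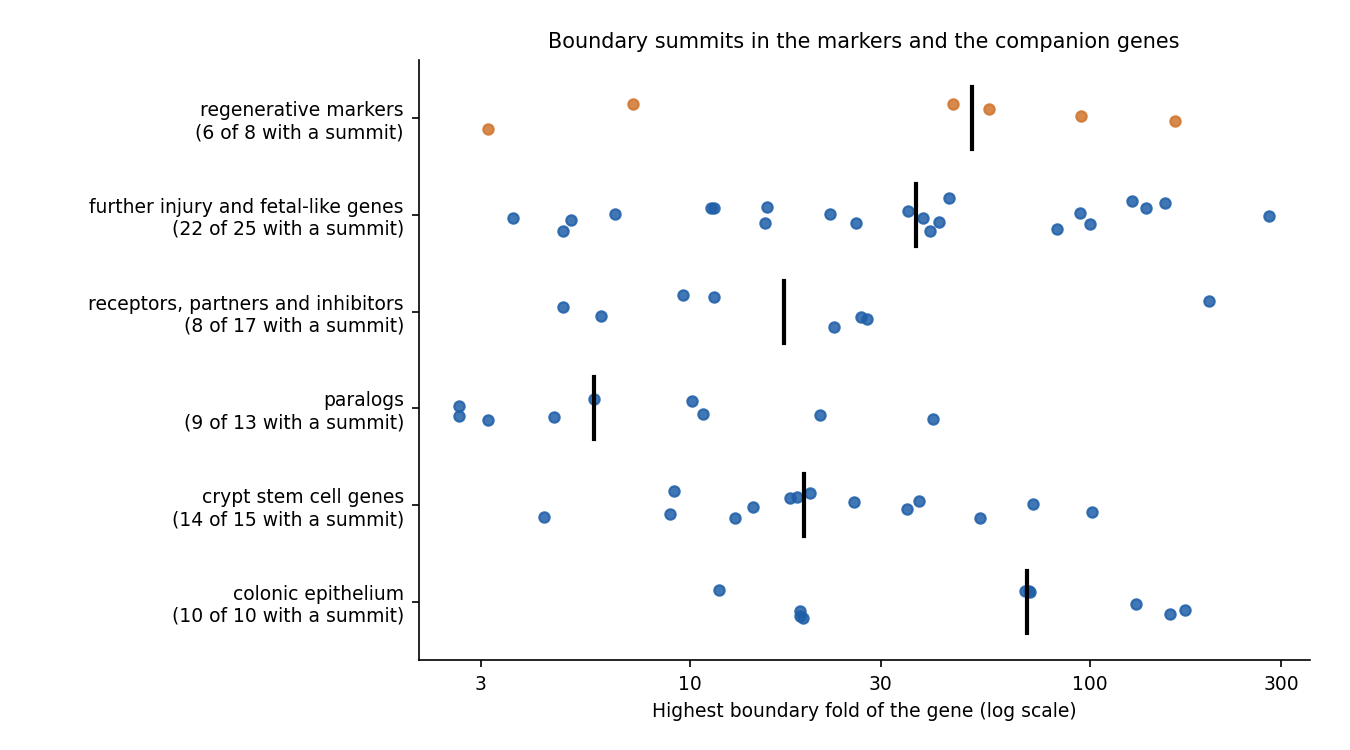
Each point is the highest boundary fold of a gene (log axis), by list, with the black bar at the median of the genes that have a boundary summit; vertical scatter within a list has no meaning. The markers (orange) spread from 3.13 to 163, and genes without a boundary summit are counted in the labels only.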

How the data were processed

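Fos was profiled by CUT&Tag in 4 libraries of mouse colon, 2 of healthy controls and 2 of colitis recovered mice. Bowtie2, MACS2 and mm10 are named in the submitters' processing notes, without versions or commands. Which libraries entered the list, and how any were combined, was not given in the sources used here, and depth per library is unknown. The deposited list gives, per summit, a fold enrichment (a linear ratio over background), a −log10 p-value, a −log10 q-value (lowest 1.80) and a score equal to 10 times the latter, cut to an integer. All are the authors' values.

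All folds were whole multiples of 0.2405 within 0.05 steps, which gives the pileup in fragments over a background of 3.16 fragments per base. This background was the same at every summit, so a fold restates the pileup and is not enrichment over the local surroundings. A Poisson −log10 p recomputed from the pileup equalled the deposited one to within 0.01 for 100% of 166926 summits, the rest being too strong to compute.

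Summits were assigned with a RefSeq gene table of GRCm38.p6, positions 1-based. The table lists neither strand nor exons and no genome was used here, so strand and promoters came from the RefSeq promoter table and motifs at distal summits were not searched. All 115 genes of the lists matched. Counting and pileup recovery were tested on simulated data. No test between groups was possible, and counts are set beside those over all protein-coding genes. The markers, lists and rules were chosen with earlier results of these data known. One further marker of the chosen set is not reported here. Named were the 8 markers, the 3 genes with the highest boundary fold and those without a boundary summit in each companion list, and the gene nearest to each window's strongest summit. Other genes were named after their values were seen. Alternatives were stricter −log10 q limits (5 and 10), 1 summit per region, no regions wider than 3000 bp, boundaries of 500 and 2000 bp, starts only, windows of 20 and 100 kb, and the nearest gene only. Python 3.11.15, pandas 2.3.3 and SciPy 1.17.1 were used.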

Additional observations from a re-analysis of the deposited data

How the results depend on the processing

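No paired analysis was possible because the peak list has no values per library, and no library could be left out for the same reason. The count of markers with a boundary summit, 6, was 5 under −log10 q limits of 5 and of 10, where Il33 was lost, while 59.1% and 55.6% of all protein-coding genes kept one. It was 7 with boundaries of 2000 bp, through Msln, where 66.4% of all protein-coding genes had one, and 4 of the 5 markers of known strand when only starts were counted, fewer by construction. It stayed 6 with 1 summit per region, without regions wider than 3000 bp and with boundaries of 500 bp, where 59.3%, 58.8% and 57.6% of all protein-coding genes had one. The 196 summits became 123 with −log10 q of at least 10, 109 with 1 summit per region, 114 and 349 with windows of 20 and 100 kb, and 107 where the marker was the nearest protein-coding gene. The highest boundary fold differed in 3 cases, at 5.29 for F3 without regions wider than 3000 bp, and for Ly6a at 15.4 with boundaries of 2000 bp and 5.05 with 500 bp. The highest fold in the window differed at 4 of the 8 markers with windows of 20 kb, where it was 163 at Emp1, 129 at Il1rn, 45.5 at F3 and 14.0 at Msln. Over summits with the marker as nearest gene it was the same at the first 3 and 3.37 at Msln, and with windows of 100 kb it was 250.2 at Msln, 71.0 at Ly6a and 10.1 at Spp1. Without regions wider than 3000 bp it was 40.7 at F3 and 163 at Emp1. Pileups as low as 12 fragments at Il33 and 13 near Msln have wide counting intervals. The fewest fragments at any called summit were 10, so signal too weak to be called at a marker is not shown to be absent.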

Other observations

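Some strong sites near the companion genes were shared between neighbours. Areg and Ereg, which encode the growth factors amphiregulin and epiregulin and lie side by side on chromosome 5, both had a highest window fold of 191, with boundary folds of 41.9 and 11.3. Ccn2, a target of YAP, had a boundary fold of 5.05 and a highest window fold of 154, and Lamb3, a laminin chain, had 3.61 and 191. Il33 had 3.13 and 83.5 by the same measures.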
